A study of Mus musculus with 12 samples.

Results

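The response of resistant 344SQ tumours to anti-PD-1 was described from 6 of the 12 arrays of the series, 3 from tumours given anti-PD-1 and 3 from tumours given control IgG, chosen by their titles. 344SQ is a mouse lung adenocarcinoma line, and the resistant tumours grew from 344SQ cells labelled as resistant to anti-PD-1. Cells were placed under the skin of the flank of female 129sv/ev mice, 5 per group, and either antibody was given at 10 mg/kg on days 4 and 7, with tumours taken on day 11. All 4 groups of the series, anti-PD-1 and IgG in resistant tumours and the same antibodies in parental tumours, had 3 arrays each. How the mice were assigned to arrays is not in the labels, and p-values here rest on array-to-array spread, which may be technical. They also do not say how the resistant cells were derived or whether they are 1 clone.

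PD-1 is an inhibitory receptor on activated T cells, and its ligand PD-L1, encoded by Cd274, is carried by tumour and myeloid cells. An antibody that blocks PD-1 can release T cells, which then secrete interferon gamma. Interferon gamma acts through transcription factors that include IRF1 to raise chemokines such as Cxcl9 and Cxcl10, guanylate binding proteins, immunoproteasome subunits and major histocompatibility complex genes in the cells that receive it. A tumour under the skin also holds fibroblasts, vessels, myeloid cells and pieces of the neighbouring fat and muscle, and all of them enter the RNA of a whole tumour.

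Values are log2 expression levels of 1 probe set per gene, and 15493 genes were tested with limma. The 6 arrays had close distributions, with medians of 4.75 to 4.80 and correlations between arrays of 0.988 to 0.995. RNA quality was alike by the control probe sets. The 3' minus 5' difference of the Gapdh controls was 0.03 ± 0.06 under anti-PD-1 and 0.04 ± 0.06 under IgG, and that of the beta-actin controls 0.50 ± 0.03 and 0.47 ± 0.12 (SD, n = 3 each, exact two-sided permutation p = 1.0 for both, where 0.1 is the smallest possible). The keratins and junction proteins of epithelial tumour cells were bright, with Krt8 between 13.13 and 13.26 and the E-cadherin gene Cdh1 between 11.46 and 11.77. The lung lineage factor Nkx2-1 lay between 3.78 and 4.01 and the surfactant gene Sftpc between 4.53 and 5.08, against array lower quartiles of 3.31 to 3.36. Hnf4a, a factor of gut and liver epithelium, lay between 9.91 and 10.38, and levels of different probe sets are not compared here.

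The response was small. By limma, no gene passed an adjusted p of 0.05 (0 of 15493, 0%), and 738 genes (4.76%) had an unadjusted p under 0.05, 379 (2.45%) with a positive and 359 (2.32%) with a negative difference. In the same fit, 542 genes (3.50%) passed between anti-PD-1 and IgG in parental tumours, and 3400 (21.9%) had an unadjusted p under 0.05. Array weights were lowest for parental anti-PD-1 replicate 3 (0.23) and parental IgG replicate 1 (0.47), with resistant IgG replicate 3 next (0.54). Leaving out these parental arrays, which stand apart from the others in the series and enter the resistant comparison only through the shared spread, left 0 genes called in resistant tumours, with 1347 at an unadjusted p under 0.05. It left 100 called in parental tumours. The parental count thus depends on single arrays, and it was 11 without parental IgG replicate 2 and 9 without parental IgG replicate 3. A fit on the 6 resistant arrays alone also called 0 genes, with 1188 at an unadjusted p under 0.05.

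The intervals limit how large a response could be. The median 95% interval of a gene reached 0.26 to either side on the log2 scale, or 1.20-fold, and for 14733 genes (95.1%) the whole interval lay within a 2-fold change in either direction, compared with 14214 genes (91.7%) in parental tumours. The median absolute difference was 0.0933, against 0.14 in parental tumours. A difference of at least 2-fold was measured for 101 genes (0.652%), 19 positive and 82 negative, against 265 (1.71%) in parental tumours, and 18 of the 101 had an unadjusted p under 0.05. The 82 negative ones held 18 members of the skeletal muscle list and 6 of the adipocyte list, and 10 of the 19 positive ones were interferon gamma genes.

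**Figure D1:**
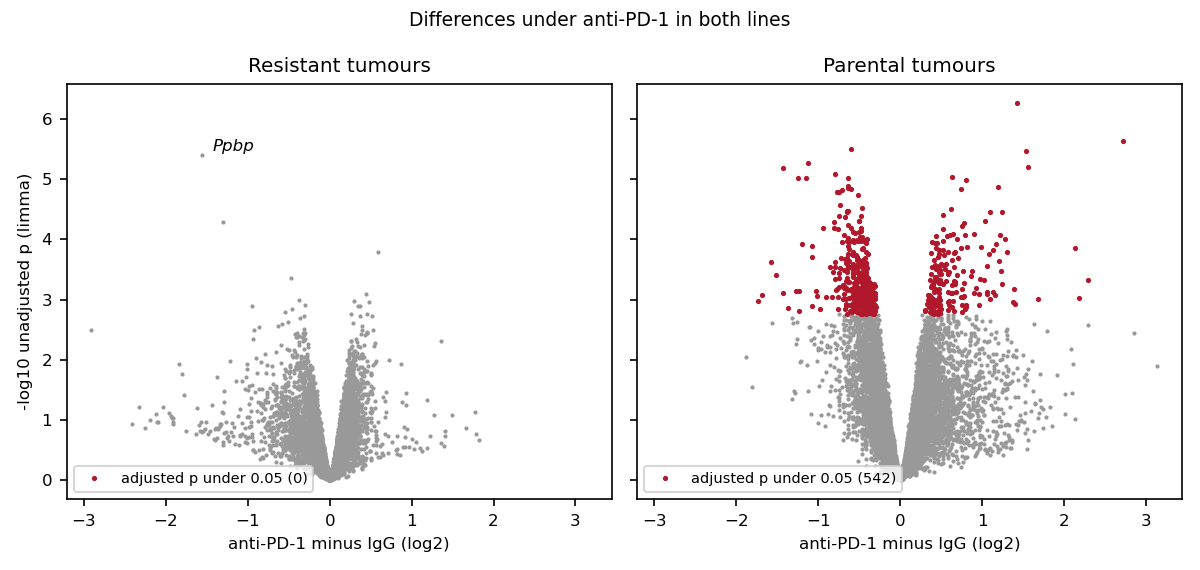
Each point is 1 of 15493 genes, with the log2 difference of anti-PD-1 minus IgG on the x axis and the negative log10 of limma's unadjusted p on the y axis, for resistant tumours (left) and parental tumours (right). Red points pass an adjusted p of 0.05: 0 genes in resistant and 542 in parental tumours, and Ppbp has the smallest p in resistant tumours.

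The anti-PD-1 and IgG arrays were separated completely, with all 3 on one side, for 2202 genes (14.2%). With 3 arrays against 3, complete separation has an exact two-sided permutation p of 0.1, so it is weak evidence for any single gene. The anti-PD-1 arrays were above for 1367 genes (8.82%) and below for 835 (5.39%). Small positive differences were the more common, with 9052 genes (58.4%) positive, 6304 (40.7%) negative and a median over all genes of 0.03. Only 1 of the 19 positive 2-fold differences was separated in this way, against 36 of the 82 negative ones. The gene groups are therefore read beside these shares.

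Most genes varied little and a few tissue programmes varied much. The SD over the 6 arrays had a median of 0.131 and was under 0.2 for 79.2% of genes. It reached 1 for 92 genes (0.594%), of which 19 were on the skeletal muscle list, 14 on the interferon lists and 6 on the adipocyte list. Differences between the treatments held 28.2% of the variance over the 6 arrays, compared with 33.4% in parental tumours. With 3 arrays a group, array-to-array spread alone also adds to such a share, so neither value measures an effect of treatment. The first component of the arrays, with 33.7% of the variance, ran from muscle and fat genes (Myh4, Sln and Adipoq) at one end to Clca1, Chil4 and Cxcl9 at the other, and the second, with 25.3%, from interferon genes to fat genes. The anti-PD-1 arrays had scores of 21.1, 0.5 and 15.2 on the first component, and the IgG arrays -4.3, -14.5 and -18.1, so that the treatments did not overlap there. On the second component anti-PD-1 arrays scored 4.7, 3.5 and -9.8 and IgG arrays 0.3, 20.6 and -19.3, and the treatments overlapped.

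**Figure D2:**
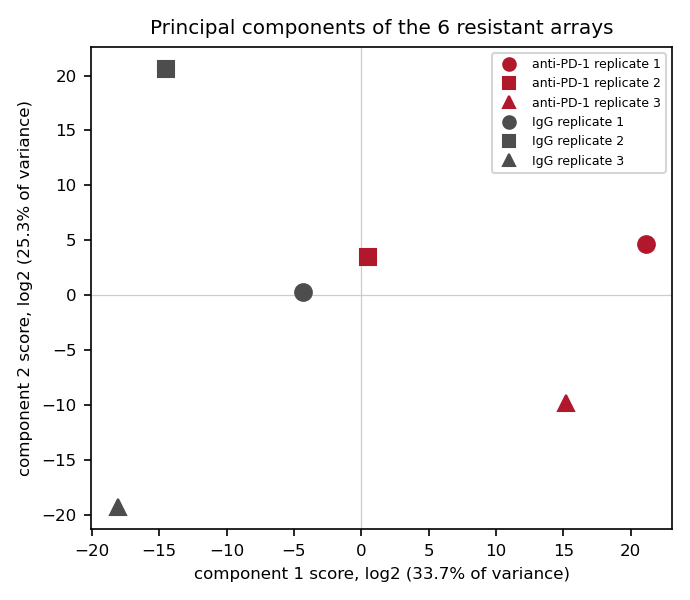
Scores of the 6 arrays on the first (x axis) and second (y axis) principal components of their log2 values, with anti-PD-1 in red and IgG in grey and a symbol per replicate. The anti-PD-1 arrays lie at 0.5 or above on the first component and the IgG arrays at -4.3 or below, while IgG replicates 2 and 3 lie at opposite ends of the second component, at 20.6 and -19.3.

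The lists of tissue and cell genes differed in how much their mean level moved among the 6 arrays. The SD of the list mean was 1.12 for skeletal muscle, 0.99 for interferon gamma genes, 0.73 for adipocytes, 0.42 for neutrophils, 0.36 for B and plasma cells and 0.34 for type I interferon genes. Smooth muscle (0.31), fibroblasts (0.30), endothelial cells (0.29) and macrophages (0.25) followed, and epithelial tumour genes stood at 0.05, against 0.02 for all genes. The pooled SD within the treatment groups was 0.96 for muscle, 1.00 for interferon gamma genes and 0.67 for adipocytes, so arrays given the same antibody also differed widely in these 3 programmes.

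**Figure D3:**
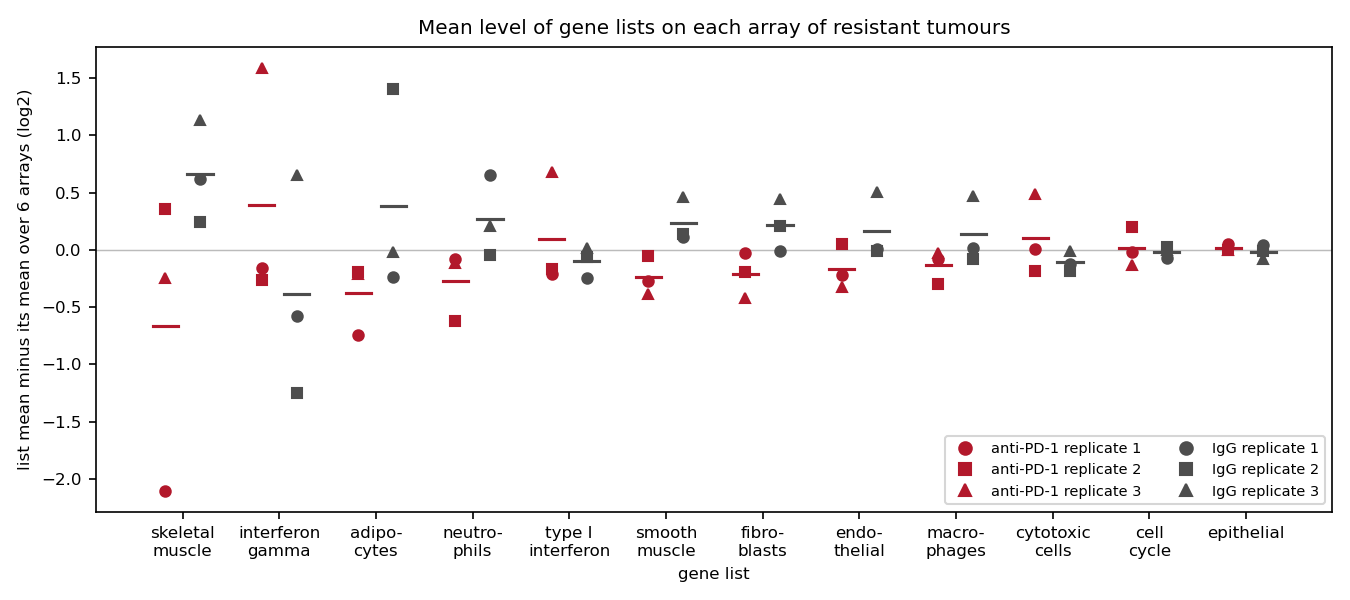
Mean log2 level of each gene list on each array, minus the mean of the list over the 6 arrays (y axis), with anti-PD-1 in red left of IgG in grey, a symbol per replicate and a bar at each group mean. Skeletal muscle, interferon gamma and adipocyte lists spread over 3.23, 2.83 and 2.14 log2 units, and each has an array far from the rest of its group, while cell cycle and epithelial lists spread over 0.33 and 0.13.

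The single gene nearest to the threshold was Ppbp, which encodes pro-platelet basic protein, the precursor of chemokines stored in platelet granules. Its level was 4.56, 4.41 and 4.53 in tumours given anti-PD-1, against 6.05, 5.70 and 6.44 in tumours given IgG. All 3 anti-PD-1 arrays lay below every IgG array, and the anti-PD-1 values spread over little. The difference was -1.56 (SE 0.19, 95% interval -1.97 to -1.15) with an adjusted p of 0.0628 by limma. It passed without resistant IgG replicate 2 (-1.75, adjusted p = 0.0284), with array weights (-1.53, adjusted p = 0.00309) and with a trended robust prior (-1.56, adjusted p = 0.0445). Over the settings for which it was recorded, which do not include leaving out a single parental array, its adjusted p ran from 0.00309 to 0.473, the highest without IgG replicate 1. In parental tumours its difference was 0.04 (SE 0.19).

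Other platelet and red cell genes were looked at after Ppbp had been seen. Of 14 platelet and megakaryocyte genes 11 were tested, Ppbp among them, with 7 negative differences and a median of -0.09. Without Ppbp, 6 of 10 were negative with a median of -0.048, and 2 (Pf4 and Gp1bb) had all anti-PD-1 arrays below and 1 (Tubb1) above the IgG arrays. The shares of all genes separated below and above were 5.39% and 8.82%. Pf4, the gene of platelet factor 4, which macrophages also express, was 8.83, 8.38 and 8.36 under anti-PD-1 and 9.35, 9.29 and 9.95 under IgG, a difference of -1.01 (SE 0.34, adjusted p = 0.896). The groups did not overlap for Pf4. The platelet receptor genes Gp1bb, P2ry12 and Itga2b differed by -0.25, -0.21 and -0.097, and Gp5, Gp6 and Gp9 by 0.02, -0.003 and 0.04. The other probe set of Gp1bb pointed the other way. Alas2, the first enzyme of haem synthesis in red cell precursors, was 4.31, 4.37 and 3.93 under anti-PD-1 and 5.25, 4.85 and 5.56 under IgG, a difference of -1.02 (SE 0.37) again without overlap. Of 10 red cell genes 3 were tested, all with negative differences and a median of -0.10. That median was -0.03 without IgG replicate 2, -0.17 without anti-PD-1 replicate 2 and -0.55 with a stricter filter, and neither Hba-a1 nor Slc4a1, both defining markers, passed the filter on dim genes. Whether blood content has a part in the Ppbp difference was not tested.

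Among the other genes with the smallest p, those with negative differences had varied roles. Hs6st2, which adds sulphate to heparan sulphate chains, was 3.83, 4.31 and 3.90 under anti-PD-1 and 5.10, 5.18 and 5.65 under IgG, a difference of -1.30 (SE 0.20, adjusted p = 0.394). Slc2a3, the glucose transporter GLUT3, was 5.69, 5.30 and 5.75 under anti-PD-1 and 6.78, 6.15 and 6.65 under IgG, a difference of -0.95 (SE 0.22), although 1 of its 3 other probe sets pointed the other way. Both genes had all anti-PD-1 arrays below the IgG arrays. The coagulation genes F7 (factor VII) and Tfpi2 (tissue factor pathway inhibitor 2) differed by -0.55 and -0.63, the dendritic cell lectin gene Cd209a by -0.46 and the retinoic acid receptor gene Rarb by -0.58. Snhg18, Unc5c and Wnk3 differed by -0.51, -0.36 and -0.31, and apart from Hs6st2 the genes of this paragraph had an adjusted p of 0.896.

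Positive differences with the smallest p were smaller in size. Cox7c, a subunit of cytochrome c oxidase, was 6.59, 6.54 and 6.58 under anti-PD-1 and 6.06, 6.10 and 6.11 under IgG, a difference of 0.48 (SE 0.11, adjusted p = 0.896). Its arrays were tightly grouped within each treatment. The zinc finger gene Zfp605 differed by 0.59 (SE 0.11, adjusted p = 0.853), but its 3 IgG values of 3.06, 3.08 and 2.82 lay under the level of 3.32 used to remove dim genes, so that the size of its difference is uncertain. Exph5, a partner of Rab27 in vesicle traffic, differed by 0.46, the testis gene Tex29 by 0.44, the mitochondrial ATPase gene Afg1l by 0.37, Dennd1b by 0.37, the guanylin gene Guca2a by 0.35, Ccdc88c by 0.30 and Zcchc8, part of a nuclear RNA surveillance complex, by 0.26. Tex29 was also dim, with IgG values of 3.23, 3.42 and 3.27, 2 of them under the level of 3.32. Another probe set pointed the other way for Dennd1b and Ccdc88c, and Rap1gapos, the last of the set, differed by 0.52.

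The largest positive difference among genes without overlap was that of Car2, the gene of carbonic anhydrase 2. Car2 was 8.91, 8.26 and 9.28 under anti-PD-1 and 8.21, 6.50 and 7.65 under IgG, a difference of 1.36 (SE 0.39, adjusted p = 0.896). Its lowest anti-PD-1 value lay just above its highest IgG value, and the difference was 0.89 without IgG replicate 2. Gzma, a granzyme of killer lymphocytes, differed by 0.91, the mitochondrial coactivator gene Ppargc1b by 0.72, the exocytosis gene Cadps by 0.69, the calcium binding gene S100g by 0.67, the mucosal protein gene Bpifb1 by 0.65 and the interleukin receptor gene Il18r1 by 0.59. Single arrays set much of these differences, with Gzma at 0.46 without anti-PD-1 replicate 3, S100g at 0.32 without anti-PD-1 replicate 1, and Ppargc1b at 0.43 and Bpifb1 at 0.42 without IgG replicate 2. The 8 largest negative ones were the muscle genes Sln, Myh4, Pvalb, Ckm, Tnnt3, Actn3 and Smpx and the fat and muscle gene Car3, described with their tissues.

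**Figure D4:**
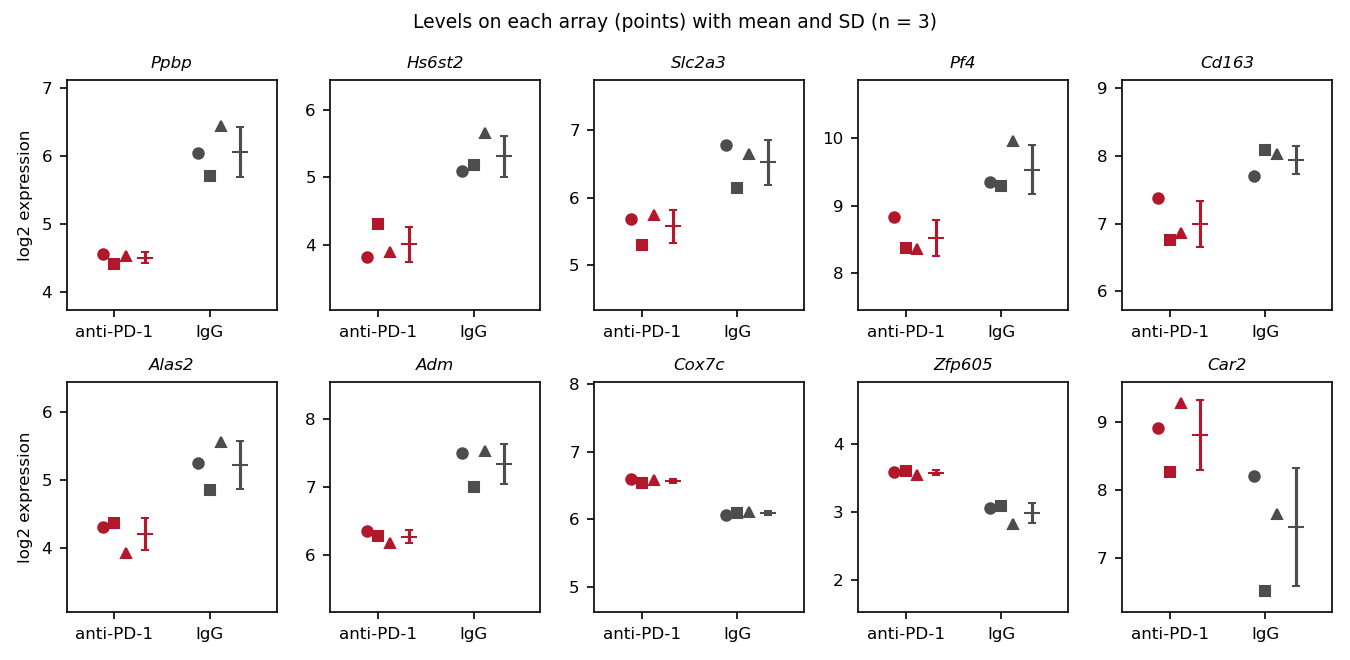
Log2 level (y axis) of 10 genes on each array, anti-PD-1 in red left of IgG in grey, with a symbol per replicate and the mean with SD (n = 3) beside the points. The panels have different y ranges of equal span. The groups do not overlap for any of the 10 genes, yet each has an adjusted p above 0.05, with the widest separation for Ppbp.

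Skeletal muscle genes varied most among the lists. All 26 tested members of the list had a negative difference, with a median of -1.44 beside 0.03 for all genes, 0 passed the test, 0 had an unadjusted p under 0.05, and 11 had all anti-PD-1 arrays below the IgG arrays (5.39% of all genes did). The list mean was 5.70, 8.16 and 7.55 under anti-PD-1 and 8.42, 8.04 and 8.93 under IgG. Anti-PD-1 replicate 1 stood far below the other 5 arrays, and anti-PD-1 replicate 2 lay within the IgG range. Without anti-PD-1 replicate 1 the median was -0.68, and without anti-PD-1 replicate 2 it was -1.97. The 95% interval reached beyond a 2-fold change on the negative side for 26 of the 26 genes, while its upper limit stayed under a 2-fold change for 22. In whole tumours, fewer cells of a type and less RNA per cell cannot be told apart, here and for every list that follows.

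The single muscle genes followed the list. Myh4, a fast myosin heavy chain, was 5.37, 9.68 and 8.71 under anti-PD-1 and 10.24, 9.80 and 10.97 under IgG, a difference of -2.42 (SE 1.41, adjusted p = 0.896) and of -1.14 without anti-PD-1 replicate 1. Ckm, the muscle creatine kinase, was 6.39, 10.41 and 9.08 under anti-PD-1 and 10.59, 10.51 and 11.12 under IgG, a difference of -2.11 (SE 1.20) and of -0.99 without that array. In both genes anti-PD-1 replicate 2 lay only just below the lowest IgG array. Sln, the gene of sarcolipin, a regulator of the calcium pump, was 5.43, 7.88 and 8.36 under anti-PD-1 and 9.93, 9.94 and 10.54 under IgG. Sln, which is not on the list, had all anti-PD-1 arrays below the IgG arrays, with a difference of -2.91 (SE 0.77, unadjusted p = 0.00317, adjusted p = 0.896), of -2.02 without anti-PD-1 replicate 1 and of -1.54 as the mean of its probe sets. The skeletal actin gene Acta1 differed by -1.60, the troponin gene Tnnt3 by -2.10, the parvalbumin gene Pvalb by -2.25, the alpha-actinin gene Actn3 by -1.96, Smpx by -1.94 and the myosin binding protein gene Mybpc2 by -2.20. Without anti-PD-1 replicate 1 the differences of Tnnt3, Pvalb, Actn3 and Smpx lay between -1.17 and -0.84. The slow myosin gene Myh7 differed by -0.27, the myoglobin gene Mb by -0.78 and the fast myosin gene Myh2 by -0.40, each with overlap.

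Fat genes had 2 arrays at opposite ends. All 18 tested adipocyte genes had a negative difference with a median of -0.43, 0 passed, 1 (Retn) had an unadjusted p under 0.05 and 2 (Cidec and Car3) did not overlap. For all genes the shares were 2.32% negative with an unadjusted p under 0.05 and 5.39% separated with anti-PD-1 below. Mean adipocyte level was 5.79, 6.34 and 6.32 under anti-PD-1 and 6.29, 7.93 and 6.51 under IgG. IgG replicate 2 was the high array and anti-PD-1 replicate 1 the low one, and the other 4 arrays lay between 6.29 and 6.51. The median was -0.08 without IgG replicate 2 and -0.09 without both arrays.

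Adipoq, the gene of the fat cell hormone adiponectin, had an SD of 2.13 over the 6 arrays. Its level was 4.06, 6.98 and 6.62 under anti-PD-1 and 6.53, 10.66 and 7.47 under IgG, a difference of -2.33 (SE 1.11, adjusted p = 0.896). Cidec, a protein of lipid droplets, was 3.65, 4.20 and 4.21 under anti-PD-1 and 4.24, 8.02 and 4.65 under IgG, a difference of -1.62 (SE 0.78). IgG replicate 2 lay far above the other 5 arrays. Car3, a carbonic anhydrase of fat and muscle, was 7.91, 10.90 and 10.68 under anti-PD-1 and 11.10, 12.86 and 11.64 under IgG, a difference of -2.04 (SE 0.97) and of -1.08 without anti-PD-1 replicate 1. Hp, the gene of haptoglobin, which fat cells also make, was 6.15, 8.27 and 8.51 under anti-PD-1 and 8.03, 11.79 and 8.89 under IgG. The fat regulators Pparg and Cebpa differed by -0.16 and -0.15. Plin1, a defining marker, was not matched here.

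Stromal genes differed less but more evenly. Of 24 tested fibroblast and matrix genes 23 had a negative difference, with a median of -0.45, 0 passed, 3 had an unadjusted p under 0.05 and 10 did not overlap, all with anti-PD-1 below. Among all genes, 5.39% were separated with anti-PD-1 below, and 2.32% had a negative difference with an unadjusted p under 0.05. Averaged over the list, the level was 9.27, 9.11 and 8.88 under anti-PD-1 and 9.29, 9.51 and 9.74 under IgG. The anti-PD-1 arrays all lay below the IgG arrays, though anti-PD-1 replicate 1 came close to IgG replicate 1, and the median was -0.30 without IgG replicate 3. The decorin gene Dcn was 9.10, 9.29 and 9.16 under anti-PD-1 and 9.36, 10.32 and 10.38 under IgG, a difference of -0.84 (SE 0.56, adjusted p = 0.896). The growth factor receptor gene Pdgfrb, found on fibroblasts and pericytes, was 8.41, 8.20 and 7.98 under anti-PD-1 and 8.47, 8.56 and 9.14 under IgG, a difference of -0.53 (SE 0.23, unadjusted p = 0.0413). The main collagen gene Col1a1 differed by -0.54, Col3a1 by -0.36, Pdgfra by -0.57, the surface marker gene Thy1 by -0.53, and the fibronectin gene Fn1 by 0.03.

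Smooth muscle and pericyte genes were similar. Of 14 tested genes 13 were negative with a median of -0.54, 0 passed, 3 had an unadjusted p under 0.05 and 6 did not overlap, all with anti-PD-1 below. The shares over all genes were 2.32% for a negative difference with such a p and 5.39% for separation below. The mean of the 14 was 5.88, 6.10 and 5.77 under anti-PD-1 and 6.27, 6.29 and 6.62 under IgG, with no overlap. Without IgG replicate 3 the median was -0.33. Myh11, the smooth muscle myosin, was 3.48, 3.70 and 3.66 under anti-PD-1 and 4.05, 4.47 and 4.50 under IgG, a difference of -0.73 (SE 0.29, adjusted p = 0.896). The potassium channel subunit gene Abcc9, a pericyte marker, differed by -0.78 (SE 0.28), the pericyte gene Rgs5 by -0.67 and the smooth muscle actin gene Acta2 by -0.63, the last with overlap and with 1 of its 2 other probe sets pointing the other way.

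All 20 tested endothelial genes had a negative difference with a median of -0.34, 0 passed, 0 had an unadjusted p under 0.05 and 3 (Emcn, Eng and Sox17) did not overlap. Separation with anti-PD-1 below held for 5.39% of all genes. Mean endothelial level was 6.35, 6.62 and 6.25 under anti-PD-1 and 6.58, 6.56 and 7.08 under IgG, with overlap. The median was -0.15 without IgG replicate 3, the array with the highest level. The vascular cadherin gene Cdh5 was 5.81, 6.37 and 5.77 under anti-PD-1 and 6.23, 6.02 and 7.11 under IgG, a difference of -0.47 (SE 0.34). IgG replicate 3 was also the highest array of the fibroblast, smooth muscle, macrophage and skeletal muscle lists.

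Macrophage genes had small differences with a few larger ones. Of 23 tested genes 21 were negative with a median of -0.25, 0 passed, 4 had an unadjusted p under 0.05 and 5 did not overlap, all with anti-PD-1 below. Across all genes, 2.32% were negative with such a p and 5.39% were separated below. Mean macrophage level was 7.73, 7.51 and 7.78 under anti-PD-1 and 7.82, 7.73 and 8.28 under IgG, and the groups overlapped. The median was -0.07 without IgG replicate 3. The pan-macrophage genes Adgre1 and Csf1r differed by -0.24 (SE 0.30) and -0.34 (SE 0.29), and both overlapped.

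Among single macrophage genes, those with an unadjusted p under 0.05 were Cd163, Pf4, Lyve1 and Itgam. Cd163, the receptor for haemoglobin bound to haptoglobin, was 7.38, 6.75 and 6.86 under anti-PD-1 and 7.70, 8.09 and 8.03 under IgG, a difference of -0.94 (SE 0.27, unadjusted p = 0.00452, adjusted p = 0.896). All anti-PD-1 arrays lay below the IgG arrays. Lyve1, found on such macrophages and on lymphatic vessels, differed by -0.99 (SE 0.39) with overlap, the integrin gene Itgam by -0.55 (SE 0.20), and Folr2 and Mrc1 by -0.25 and -0.30. Arg1 and Nos2, enzymes of arginine use in activated macrophages, differed by -0.08 and 0.003. Chil3, a secreted chitinase-like protein, was 11.48, 10.50 and 10.64 under anti-PD-1 and 10.42, 7.80 and 10.60 under IgG, a difference of 1.27 (SE 0.66). IgG replicate 2 was low, and the Chil3 probe set may also read its near-identical paralogue Chil4.

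Neutrophil genes had negative differences without exception among the 13 tested, with a median of -0.37. Of these, 0 passed, 2 had an unadjusted p under 0.05 and 5 did not overlap, all with anti-PD-1 below. In all genes these shares were 2.32% (negative differences only) and 5.39%. Mean neutrophil level was 5.66, 5.12 and 5.62 under anti-PD-1 and 6.39, 5.69 and 5.95 under IgG, without overlap by a narrow margin. S100a9, a calcium binding alarm protein of neutrophils, was 8.63, 6.29 and 7.79 under anti-PD-1 and 10.02, 7.98 and 9.59 under IgG, a difference of -1.63 (SE 1.11, adjusted p = 0.896). The groups overlapped through anti-PD-1 replicate 1, while within replicate numbers 1, 2 and 3 S100a9 differed by -1.39, -1.69 and -1.80. The chemokine receptor gene Cxcr2 was 3.51, 3.38 and 3.53 under anti-PD-1 and 3.87, 3.96 and 4.05 under IgG, a difference of -0.49 (SE 0.16, unadjusted p = 0.0122). The granule genes Ngp, Camp and Ltf of immature neutrophils differed by -0.37, -0.22 and -0.03.

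Mast cell genes had a median of -0.24 with 8 of 10 negative, and dendritic cell genes of -0.09 with 7 of 11 negative, and 0 passed in either. The mast cell median was -0.42 without anti-PD-1 replicate 3 and -0.14 without IgG replicate 2, and the dendritic cell median was 0.04 with the mean of all probe sets, with the probe set of highest SD and with a stricter filter. Keratinocyte and peripheral nerve genes, which would mark skin and its nerves, had medians of 0.03 and -0.05, and 0 passed. B and plasma cell genes had a median of -0.16 with all 11 tested genes negative and 0 passed. That median was -0.05 without IgG replicate 2 and -0.86 with a stricter filter on dim genes. Ighm, the constant region of IgM, was 6.19, 6.08 and 6.06 under anti-PD-1 and 9.54, 7.98 and 6.22 under IgG, a difference of -1.80 (SE 0.64, unadjusted p = 0.0173). IgG replicates 1 and 2 were high and IgG replicate 3 was near the anti-PD-1 arrays, and 3 of its 10 other probe sets pointed the other way. Jchain, which joins secreted immunoglobulin chains, was 4.56, 3.92 and 5.18 under anti-PD-1 and 6.73, 7.35 and 3.79 under IgG, with the same 2 arrays high. The B cell genes Cd79a, Ms4a1 and Pax5 differed by -0.07, -0.09 and -0.05.

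**Figure D5:**
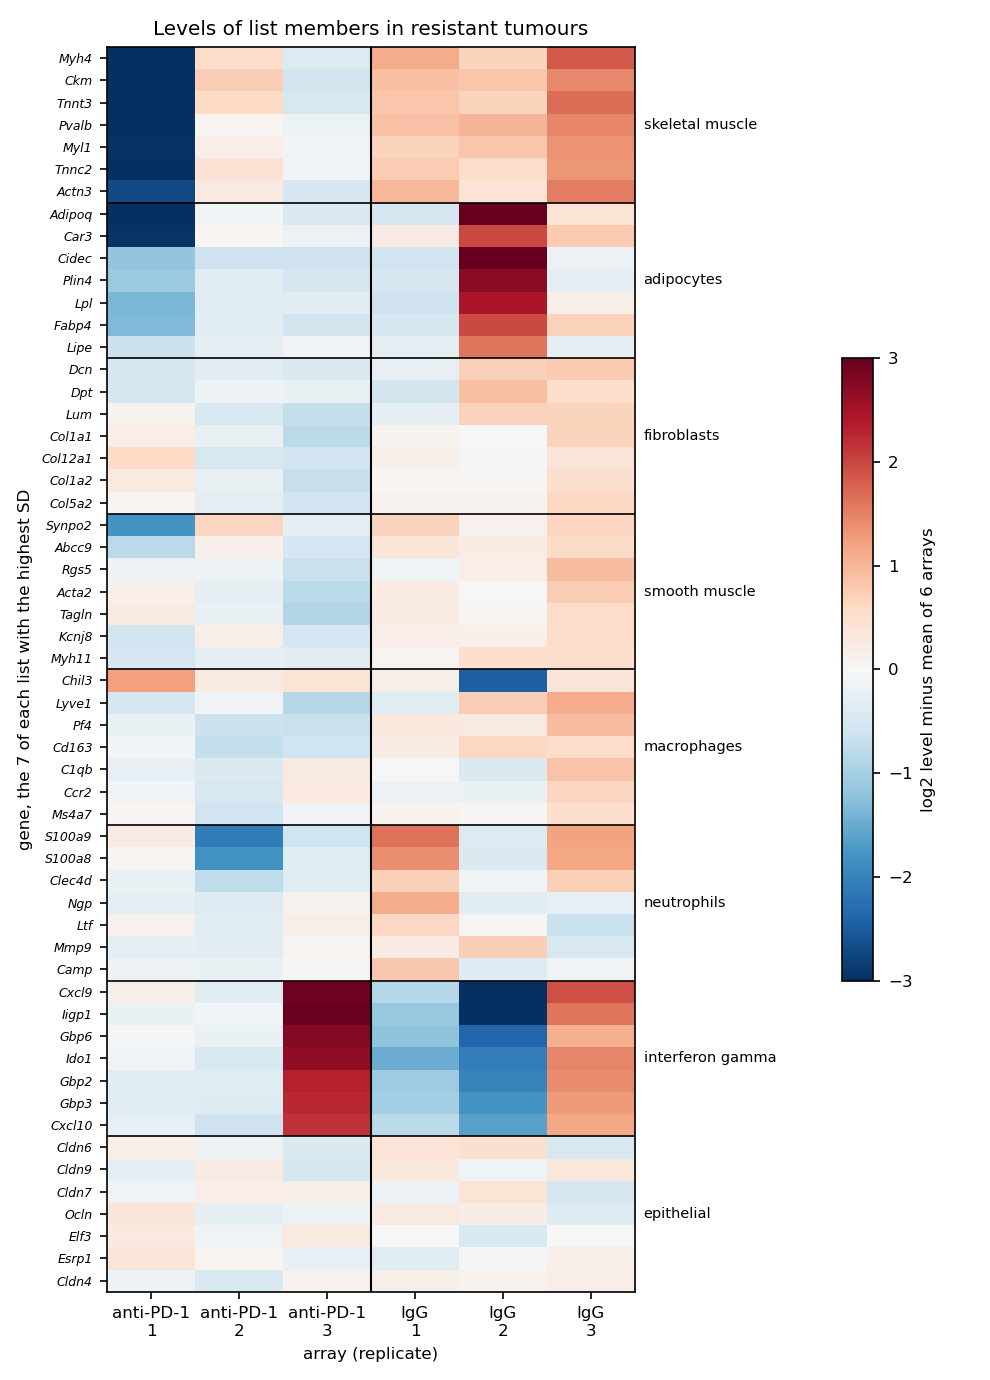
Log2 level of the 7 genes with the highest SD in each of 8 lists, minus the mean of the gene over the 6 arrays (colour, red above and blue below, with values beyond 3 drawn at the end of the scale), for anti-PD-1 arrays on the left and IgG arrays on the right. Muscle genes are low on anti-PD-1 replicate 1, fat genes high on IgG replicate 2, and interferon gamma genes high on replicate 3 and low on IgG replicate 2, while epithelial genes are close to even.

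Interferon gamma genes were the programme with positive differences. All 29 tested genes were positive with a median of 0.61 beside 0.03 for all genes, 0 passed, 0 had an unadjusted p under 0.05, 0 had a 95% interval within a 2-fold change, and 1 (Socs1, an inhibitor of cytokine signalling) did not overlap. Of all genes, 8.82% were separated with anti-PD-1 above. The list mean was 7.59, 7.48 and 9.33 under anti-PD-1 and 7.17, 6.50 and 8.40 under IgG. Replicate 3 was the highest array of both groups, IgG replicate 3 lay above anti-PD-1 replicates 1 and 2, and IgG replicate 2 was the lowest. The median was 0.18 without anti-PD-1 replicate 3 and 0.98 without IgG replicate 3.

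The promoters shown are those of the 4 list members with the highest SD over the 6 arrays among members with a promoter entry. They run from 250 bases before to 50 after the gene start in RefSeq on GRCm38.p6, 5' to 3' on the strand of the gene, and capitals mark matches to the core of an interferon-stimulated response element (GAAA, any 2 bases, GAAA) on either strand. Cxcl9 lies at chr5:92328030-92328329 (minus strand), Gbp2 at chr3:142620413-142620712 (plus), Gbp3 at chr3:142559794-142560093 (plus, the first of 2 entries) and Cxcl10 at chr5:92348840-92349139 (minus).
Cxcl9: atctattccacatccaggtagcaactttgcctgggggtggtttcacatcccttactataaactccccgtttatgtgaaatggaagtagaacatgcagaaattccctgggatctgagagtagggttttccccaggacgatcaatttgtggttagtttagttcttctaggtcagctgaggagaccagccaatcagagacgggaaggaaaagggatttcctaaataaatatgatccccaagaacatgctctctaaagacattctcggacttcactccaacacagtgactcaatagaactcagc
Gbp2: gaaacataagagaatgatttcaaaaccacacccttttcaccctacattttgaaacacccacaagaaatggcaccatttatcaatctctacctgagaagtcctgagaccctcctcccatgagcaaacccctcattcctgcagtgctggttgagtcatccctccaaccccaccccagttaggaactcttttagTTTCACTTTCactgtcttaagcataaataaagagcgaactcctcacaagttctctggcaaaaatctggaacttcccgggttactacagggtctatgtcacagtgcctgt
Gbp3: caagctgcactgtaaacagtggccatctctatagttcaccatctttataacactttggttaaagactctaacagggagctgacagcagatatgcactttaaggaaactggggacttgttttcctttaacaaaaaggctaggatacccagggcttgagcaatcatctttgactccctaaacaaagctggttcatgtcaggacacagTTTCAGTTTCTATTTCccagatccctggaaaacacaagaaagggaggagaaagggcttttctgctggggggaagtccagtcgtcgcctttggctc
Cxcl10: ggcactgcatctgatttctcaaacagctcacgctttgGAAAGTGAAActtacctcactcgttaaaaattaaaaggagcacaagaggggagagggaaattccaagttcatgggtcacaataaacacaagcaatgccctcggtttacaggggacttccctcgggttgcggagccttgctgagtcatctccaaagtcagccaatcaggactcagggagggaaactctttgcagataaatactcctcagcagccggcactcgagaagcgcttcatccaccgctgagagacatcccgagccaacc
Gbp2 and Cxcl10 hold 1 match each, Gbp3 holds 2 that overlap each other, and Cxcl9 holds none in this window. Of the 20 tested list members with a promoter entry, 9 held the response element core, 5 held TTCNNNGAA, the core of a gamma-activated site, and 11 held either, with both strands searched. Over 32851 promoters of the same length the shares were 3.44%, 8.30% and 11.3%. A match describes the letters only and is no sign of binding. Gbp6 and Ido1 had no entry.

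The members with the widest spread were chemokines and interferon-induced enzymes. Cxcl9, a chemokine that attracts activated T cells, was 7.94, 7.41 and 10.67 under anti-PD-1 and 6.90, 3.97 and 9.69 under IgG, with the highest SD of all genes named (2.34) and a difference of 1.82 (SE 1.37, adjusted p = 0.896). Cxcl10 was 5.64, 5.27 and 8.05 under anti-PD-1 and 5.08, 4.26 and 7.05 under IgG. Gbp2, a GTPase that acts against intracellular pathogens, was 7.31, 7.29 and 9.98 under anti-PD-1 and 6.57, 5.65 and 9.07 under IgG. In each of these genes the replicate 3 arrays were high in both groups and IgG replicate 2 was lowest. Gbp3 differed by 1.03, Gbp6 by 1.67, Gbp2b by 1.41, the GTPase gene Iigp1 by 1.79 and Ido1, which breaks down tryptophan, by 1.39. The transcription factor gene Irf1 differed by 0.39, the peptide transporter gene Tap1 by 0.82, H2-K1 and B2m of class I antigen presentation by 0.56 and 0.27, and the class II genes H2-Aa and Cd74 by 0.07 and 0.30.

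Within each replicate number the anti-PD-1 array lay above the IgG array for this list. The median over the list of the differences within numbers 1, 2 and 3 was 0.39, 0.62 and 0.91, and 25 of the 29 genes were positive within all 3 numbers, where 2832 of all genes (18.3%) were. With the replicate number as a block in the 6 arrays, 24 of the 29 genes had an unadjusted p under 0.05 in the positive direction, where 482 of all genes (3.11%) did and 666 (4.30%) did in the negative direction. In that fit 0 passed, the smallest adjusted p among them being 0.115. Members of this list vary together over the arrays, so their counts are not independent, and this look at the pairs was chosen after the values were seen. In the negative direction, the same fit gave an unadjusted p under 0.05 for 16 of 26 skeletal muscle, 9 of 24 fibroblast and 9 of 23 macrophage genes. It did so for 7 of 13 neutrophil, 5 of 21 hypoxia, 4 of 14 smooth muscle and 5 of 18 adipocyte genes. In the positive direction it did so for 6 of 28 type I interferon and 5 of 22 cytotoxic T and NK cell genes. Again 0 passed, and the lists named here are examples. Negative within all 3 numbers were 13 of 26 skeletal muscle, 10 of 24 fibroblast, 13 of 23 macrophage and 8 of 13 neutrophil genes. So were 14 of 21 hypoxia, 8 of 14 smooth muscle and 8 of 18 adipocyte genes, where 1821 of all genes (11.8%) were. The labels do not say what a shared number stands for.

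Lists near this one gave less. Of 28 type I interferon genes 21 were positive with a median of 0.24, 0 passed and 1 (Bst2) did not overlap, and the median was -0.08 without anti-PD-1 replicate 3, the high array. Separation with anti-PD-1 above held for 8.82% of all genes. Ifit1, an antiviral protein, was 4.39, 4.67 and 6.40 under anti-PD-1 and 4.51, 4.51 and 4.67 under IgG. Only anti-PD-1 replicate 3 stood out for it. Ifi27l2a had its highest array where the adipocyte list had it, at 6.04, 7.71 and 8.39 under anti-PD-1 and 6.47, 10.32 and 7.90 under IgG.

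Genes of cytotoxic T and NK cells had a median of 0.19, with 16 of 22 positive, 0 passed and 3 (Gzma, Ifng and Klre1) without overlap, and a median of 0.00 without anti-PD-1 replicate 3. Over all genes, 58.4% were positive and 8.82% had all anti-PD-1 arrays above the IgG arrays. Gzma was 4.50, 4.58 and 5.87 under anti-PD-1 and 4.18, 3.81 and 4.24 under IgG, a difference of 0.91 (SE 0.55, adjusted p = 0.896). Ifng itself was 3.49, 3.30 and 3.79 under anti-PD-1 and 2.86, 3.08 and 3.17 under IgG, with all IgG values and 1 anti-PD-1 value under the level of 3.32 used to remove dim genes. The T cell genes Cd8a and Cd3e differed by -0.14 and -0.13, both with overlap. CD4 and regulatory T cell genes had a median of -0.04, and Foxp3 differed by 0.09.

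The target of the antibody and its ligand differed by less than the spread between arrays. Pdcd1 was 2.95, 2.83 and 3.17 under anti-PD-1 and 3.00, 3.18 and 3.10 under IgG, all under the filter level, so no fold is given. Cd274 was 5.20, 4.66 and 6.12 under anti-PD-1 and 5.30, 4.95 and 5.52 under IgG, a difference of 0.07 (SE 0.55, adjusted p = 0.99). The groups overlapped, and the difference was -0.33 without anti-PD-1 replicate 3. The 12 tested checkpoint genes had a median of 0.01 and 0 passed, with Lag3 at 0.17 and Havcr2 at 0.06.

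Hypoxia and glycolysis genes had a median of -0.16, with 18 of 21 tested genes negative, 0 passed, 4 with an unadjusted p under 0.05 and 8 without overlap, all with anti-PD-1 below. Beside these stand 2.32% of all genes negative with such a p and 5.39% separated below. The list mean was 9.13, 9.01 and 9.12 under anti-PD-1 and 9.31, 9.21 and 9.44 under IgG, and the groups did not overlap. Without IgG replicate 3 the median was -0.09. Adm, the gene of the vessel peptide adrenomedullin, was 6.36, 6.28 and 6.17 under anti-PD-1 and 7.50, 7.00 and 7.53 under IgG, a difference of -1.07 (SE 0.41, unadjusted p = 0.0229, adjusted p = 0.896). Pfkfb3, a regulator of glycolysis, differed by -0.90 (SE 0.29, with its other probe set pointing the other way), the hexokinase gene Hk2 by -0.48 and the glucose transporter gene Slc2a1 by -0.45. The enzymes Ldha, Pgk1 and Pkm differed by -0.04, -0.05 and 0.02.

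The lists of epithelial, lung lineage and cell cycle genes were close to even. They do not cover every gene of the tumour cells, and cell cycle genes are not particular to these cells. Epithelial genes had a median of 0.07, lung lineage genes of 0.04 and cell cycle genes of 0.02, with 0 passing in any of them. Their list means under anti-PD-1 and IgG were 7.68 ± 0.03 and 7.64 ± 0.06 for epithelial genes and 8.87 ± 0.17 and 8.84 ± 0.05 for the cell cycle (SD, n = 3 each). Mki67, a marker of dividing cells, was 10.05, 10.32 and 9.82 under anti-PD-1 and 9.99, 9.93 and 10.44 under IgG, a difference of -0.06 (SE 0.23). For 24 of 24 cell cycle genes and 14 of 19 epithelial genes the 95% interval lay within a 2-fold change. This held for 95.1% of all genes, so epithelial genes were less tightly bounded than most. Of the 19 epithelial genes 2 had an unadjusted p under 0.05 (4.76% of all genes did). All anti-PD-1 arrays lay above the IgG arrays for 2 of them (8.82% of all genes). Esrp2, a splicing regulator of epithelial cells, was 7.63, 7.74 and 7.91 under anti-PD-1 and 7.46, 7.46 and 7.45 under IgG, a difference of 0.30 (SE 0.11, unadjusted p = 0.0202, adjusted p = 0.896).

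Fatty acid binding proteins, which carry lipids inside cells, differed by member, and 0 of the 7 tested passed. Fabp4 of fat cells was 8.35, 9.34 and 9.12 under anti-PD-1 and 9.17, 11.66 and 10.37 under IgG, a difference of -1.46 (SE 0.95) and of -0.83 without IgG replicate 2, and the adipocyte list had the same array at the top. Fabp3 of heart and muscle, without overlap, was 4.56, 5.48 and 5.37 under anti-PD-1 and 5.93, 5.75 and 5.88 under IgG, a difference of -0.72 (SE 0.61) and of -0.43 without anti-PD-1 replicate 1. Fabp7, known from brain and nerve support cells, was 5.16, 4.17 and 6.76 under anti-PD-1 and 4.62, 4.54 and 3.37 under IgG, a difference of 1.19 (SE 0.53, unadjusted p = 0.047) with overlap, and of 0.49 without anti-PD-1 replicate 3. Fabp5 differed by -0.32 (-0.10 without IgG replicate 3), Pmp2 by -0.13, Fabp6 by 0.10 and Fabp12 by 0.03.

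Ferroptosis is a form of cell death by lipid peroxides, in which Gpx4 and the cystine transporter Slc7a11 protect and Acsl4 promotes. Gpx4 was 11.67, 11.68 and 11.77 under anti-PD-1 and 11.65, 11.77 and 11.58 under IgG, a difference of 0.04 (SE 0.09). Slc7a11 differed by -0.02 (SE 0.28) and Acsl4 by 0.12 (SE 0.12, with both other probe sets pointing the other way). The defence list had a median of 0.04, the driver list of -0.03 and fatty acid oxidation genes of 0.07, and 0 genes passed in any of them. The 95% interval lay within a 2-fold change for 18 of 19 defence genes, 17 of 18 driver genes and 17 of 17 oxidation genes. It did so for 95.1% of all genes.

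Whether the response differed from that of parental tumours was tested by the interaction, the resistant difference minus the parental difference. No gene passed (0 of 15493, 0%), and 2713 (17.5%) had an unadjusted p under 0.05. Fosb, an early response transcription factor, had a resistant difference of -0.19 (SE 0.31), a parental one of 2.72 (SE 0.31) and an interaction of -2.91 (SE 0.43, adjusted p = 0.101). Fosb was 4.34, 4.78 and 3.84 under anti-PD-1 and 4.29, 4.87 and 4.37 under IgG in resistant tumours. The stress response factor gene Atf3 had an interaction of -1.90, Nav2 of -1.37, Zfp606 of 1.39, Exph5 of 1.10 and H3f3b, which encodes a histone, of 0.91, each with an adjusted p of 0.101. With the replicate number as a block, 3 genes passed the interaction, Fosb, Ptx3 and Chl1, all negative. The interaction count was 78 without parental anti-PD-1 replicate 1, and 121 with array weights.

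By list, the resistant and parental medians were -0.05 and 0.72 for the 30 immediate early genes, with an interaction median of -0.75 and 29 of 30 negative. They were -1.44 and 1.26 for skeletal muscle, -0.34 and 0.70 for endothelial cells, -0.45 and 0.34 for fibroblasts and -0.37 and 0.41 for neutrophils. For the interferon gamma list they were 0.61 and 0.95, with an interaction median of -0.21 and 24 of 29 negative. Over all genes the interaction median was 0.03, and the parental values rest in part on the 2 parental arrays that stand apart.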

How the data were processed

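RNA from whole tumours was labelled with biotin and hybridized to Affymetrix whole-genome mouse arrays, per the labels' protocols. Deposited by the authors was a single log2 table, and its background correction, normalization and summarization are not given in the sources used here. The log2 scale was read from the values, which run from 1.62 to 13.88. No 2 arrays were identical (0 pairs).

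Of 45101 probe sets 34945 carried 1 gene, and 64 controls, 932 with several genes and 9160 with none were set aside. Symbols of 34741 were matched by gene number to a RefSeq table of GRCm38.p6. Each of 18193 genes was represented by its brightest probe set (highest mean of the 12 arrays), and 15493 genes with at least 3 arrays above the 25th percentile of all values (3.32) were tested.

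The fit in limma 3.58.1 (R 4.3.3) used every array of the series, with a mean for each group, so the groups share an estimate of spread. Residual degrees of freedom were 8, those of the prior 2.98, and the median SE was 0.117 (0.166 for the interaction). Tests were two-sided, and genes were called at a Benjamini-Hochberg adjusted p under 0.05 over all genes. The code was tested on simulated data. The number of arrays limits the precision. Alternatives covered the filter, scaling, probe set per gene, array weights, variance prior, block, arrays in the fit and each array left out.

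The 27 gene lists (519 entries, 462 tested) and the genes compared were chosen with earlier results of these data known, and lists are described without a test. Named are the 10 smallest p in each direction and the 8 largest differences among genes without overlap, the 12 highest SDs, list markers and variable members, fatty acid binding protein, PD-1 and ferroptosis genes and the 3 smallest interaction p each way, leaving out predicted genes, clone names and B and T cell receptor segments. Platelet genes, the pairs and examples in lists beyond this rule were chosen after their values were seen.

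Arrays are numbered 1 to 3 in each group by their titles. Deviations from the group means correlated at 0.11, 0.12 and 0.17 between same-numbered arrays of the resistant groups. Differently numbered arrays of these groups correlated at -0.18 to 0.05. Between the lines, same-numbered arrays of resistant anti-PD-1 and parental IgG correlated at 0.41, 0.18 and 0.44. Differently numbered ones did so at -0.41 to 0.23. Same-numbered arrays under anti-PD-1 in both lines correlated at 0.27, 0.09 and 0.22, and under IgG in both lines at 0.17, -0.21 and 0.25. Those of resistant IgG and parental anti-PD-1 correlated at 0.24, -0.01 and 0.26. Resistant IgG replicate 3 and parental IgG replicate 2 correlated at 0.32. The main fit did not pair the arrays, and the replicate number entered as a block only in alternative fits. Same-numbered arrays of the parental groups correlated at 0.64, 0.06 and 0.44. Promoters are from RefSeq on GRCm38.p6. Figures were drawn with matplotlib 3.10.9.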

Additional observations from a re-analysis of the deposited data

How the results depend on the processing

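In resistant tumours 0 genes passed under the other settings tried, except that Ppbp alone passed with array weights, with a trended robust prior and without IgG replicate 2 (1 gene each), and counts ranged from 0 to 1 over arrays left out in turn. With the replicate block 0 genes passed (872 with an unadjusted p under 0.05), 3 passed in the interaction, Fosb, Ptx3 and Chl1, and 725 in parental tumours, and the block changed no other call. The interaction count was 0 with all arrays in, 121 with array weights (79 positive, 42 negative), and 0 to 78 over arrays left out, the highest when parental anti-PD-1 replicate 1 was dropped, with 1 gene after dropping parental IgG replicate 3. The parental count of 542 was 918 with array weights, 100 without both parental arrays that stand apart, 79 without resistant anti-PD-1 replicate 1 and IgG replicate 2, and 9 to 712 over arrays left out, lowest without parental IgG replicate 3 and more than 1.5 times under 542 on dropping any of the 3 parental IgG arrays, parental anti-PD-1 replicate 3, resistant IgG replicate 1 or any resistant anti-PD-1 array. The cause of these shifts was not tested.

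Of 832 values of 47 named genes 818 kept their direction and side of the threshold. Genes near 0 turned sign. Acsl4 was -0.04 with the mean of its probe sets. Cd274 was -0.02 without both resistant arrays at the ends of the muscle and fat lists, -0.08 without IgG replicate 2 and -0.33 without anti-PD-1 replicate 3, which is its lowest value, and 0.40 was its highest. Fabp12 was -0.02 with array weights, and -0.05 to 0.10 over arrays left out. Slc7a11 was 0.05 with array weights, 0.12 without both of those arrays, and -0.12 to 0.15 over arrays left out. List medians moved by less than the spread between replicates in 309 of 324 values. Arrays have no read depth, and probe sets near the lower quartile, such as Pdcd1, Ifng and Zfp605, may give understated differences.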
